A study of Schmidtea mediterranea with 177 samples.

Results

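*zic-1*, *zic-2* and *foxD* are transcription factor genes with an anterior expression pattern in the planarian *Schmidtea mediterranea*, and their reads were followed in 177 single cells from head to tail. They are 3 of the 26560 transcripts of the deposited read count table and were chosen by name, with earlier results of these data known. Contig dd_Smed_v4_22585_0_1 is *zic-1*, dd_Smed_v4_15531_0_1 is *zic-2* and dd_Smed_v4_23249_0_1 is *foxD*. All cells came from asexual CIW4 animals that had been starved and received no other treatment, and each cell came from 1 of 10 consecutive pieces along the midline, from region 1 at the head tip to region 10 at the tail tip, with the pharynx removed from regions 5 and 6. Cells were sorted as non-dividing by their DNA stain and screened by qRT-PCR for the muscle genes *collagen* or *troponin*, and the authors then labelled 115 of them as muscle and 62 as non-muscle from the same libraries. Region 2 held no non-muscle cell. No animal or day is named for a cell, so the cells of a region were summed into 1 sample. The p-values therefore measure the spread between regions, and the differences between animals were not measured.

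Planarian body wall muscle carries much of the positional information of the animal, because its cells express secreted signals and receptors in restricted domains along the anteroposterior (AP) axis. Wnt signalling is active in the posterior and is held down in the head, in part by the secreted inhibitor *notum*, which is made by muscle cells at the anterior pole, a small group of cells at the head tip. Zic proteins bind DNA through zinc fingers, and FoxD proteins through a forkhead domain. In planarians *zic-1* and *foxD* are known for their part in forming the anterior pole during head regeneration, and *zic-2* is another gene of the Zic family.

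The primers with which the study amplified *zic-2* from cDNA for in situ hybridization are shown because they identify the cloned stretch of the gene by sequence. They are written 5′ to 3′ in lower case with no part marked, and their place in the contig was not looked up.
5′ outer primer: taagctcggccgcgaatt
5′ inner primer: gagcgaatccgatttgtgtgg
3′ primer: ttgcgcaaagagctggga
*zic-1* and *zic-2* are related genes, but their reads came from separate cells in part. In 4 muscle cells *zic-1* had 62 to 878 reads and *zic-2* had none. In 19 muscle cells *zic-2* had 5 to 364 reads and *zic-1* had none.

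The libraries held between 19205 and 3884642 reads, with a median of 259378 in muscle and 304656 in non-muscle cells, and muscle cells of region 10 were the deepest, with a median of 1238249.5 reads. Expression in a cell means over 2 reads of the transcript, which is the cut-off used in the study, and cpm (counts per 1e6 reads) is relative to all reads of the cell or of the sum. Marker lists were those the study picked from these cells. The 12 muscle markers summed to a median of 16690.4 cpm in muscle and 172 cpm in non-muscle cells. The 12 markers of the epidermal side summed to 32.8 cpm in muscle and 6743.0 cpm in non-muscle cells. The 12 neoblast markers, which mark planarian stem cells, were present in both classes, at a median of 6140.7 cpm in muscle and 3411.6 cpm in non-muscle cells. No 2 libraries were identical.

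In muscle *zic-1* had its highest share of cells in the head tip, but only 37.6% of its muscle reads came from region 1. It was expressed in 12 of the 115 muscle cells (10.43%, exact 95% interval 5.509% to 17.52%). Of these 12 cells, 8 came from regions 1 and 2, which held 17 of the 115 muscle cells. In region 1, *zic-1* was expressed in 6 of 11 cells (54.55%, interval 23.38% to 83.25%), at 230.3, 241.4, 332, 462.1, 1184.3 and 2035.5 cpm, and the other 5 cells had no read. In region 2 it was expressed in 2 of 6 cells, at 597.5 and 626.3 cpm. Behind region 2 the gene was rare. It was found in 1 of 23 cells in region 5 (856.8 cpm), 1 of 12 in region 6 (70.03 cpm) and 2 of 13 in region 8 (28.51 and 874.2 cpm). It was expressed in none of the 6, 10, 9, 13 and 12 cells of regions 3, 4, 7, 9 and 10, where 0 expressing cells allow shares of up to 50%, 30%, 33.33%, 23.08% and 25% (3 cells of the number measured), and a single read was found in region 4. All intervals and limits of shares cover counting error only.

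*zic-2* was the most widespread of the 3 genes, with its highest share in the head tip. It was expressed in 28 of 115 muscle cells (24.35%, interval 16.83% to 33.23%), in 9 of the 10 regions. In region 1, *zic-2* was expressed in 9 of 11 cells (81.82%, interval 48.22% to 97.72%), at 31.28 to 1696.0 cpm with a median of 308 cpm. In region 2 it was expressed in 3 of 6 cells, at 28.65, 195.1 and 2799.9 cpm, and the highest of these cells held 97.42% of the *zic-2* reads of the region. Farther back *zic-2* was found in scattered cells. These were 1 of 6 cells in region 3 (25.63 cpm), 1 of 10 in region 4 (607.4 cpm), 5 of 23 in region 5 (43.33 to 423.6 cpm) and 0 of 12 in region 6. They were 3 of 9 cells in region 7 (150.4 to 780.2 cpm), 2 of 13 in region 8 (11.7 and 108.3 cpm), 1 of 13 in region 9 (36.94 cpm) and 3 of 12 in region 10 (17.29 to 38.05 cpm). Region 10 also held the deepest cells. With each cell thinned to 50000 reads, 0 of the 12 cells kept more than 2 reads of *zic-2*, while 8 of 11 cells did in region 1.

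*foxD* had a different distribution, with few cells at the head tip, 2 of them very high, and other cells scattered from region 4 to region 10. It was expressed in 18 of 115 muscle cells (15.65%, interval 9.548% to 23.6%), of which 3 came from region 1, none from regions 2 and 3, and 15 from regions 4 to 10. Regions 4 to 10 also held 92 of the 115 muscle cells. Region 1 held 16.67% of the *foxD* cells, beside a median of 11.11% over all 13570 transcripts tested. In region 1, *foxD* was expressed in 3 of 11 cells (27.27%, interval 6.022% to 60.97%), at 395.2, 7588.9 and 10285.5 cpm. The 2 highest of these cells stood above every other muscle cell, since the 15 cells of regions 4 to 10 lay between 114.2 and 1704.0 cpm. Region 8 had the highest share, 5 of 13 cells (38.46%, interval 13.86% to 68.42%), at 487.9 to 1490.9 cpm. The remaining *foxD* cells were 2 of 10 in region 4 (114.2 and 552.5 cpm), 3 of 23 in region 5 (326.4 to 379.9 cpm), 3 of 12 in region 6 (171.1 to 1704.0 cpm), 1 of 13 in region 9 (506.3 cpm) and 1 of 12 in region 10 (188.4 cpm). None of the 9 cells of region 7 expressed it. Thinning to 50000 reads left *foxD* in 17 of 110 muscle cells, *zic-1* in 11 and *zic-2* in 20.

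**Figure D1:**
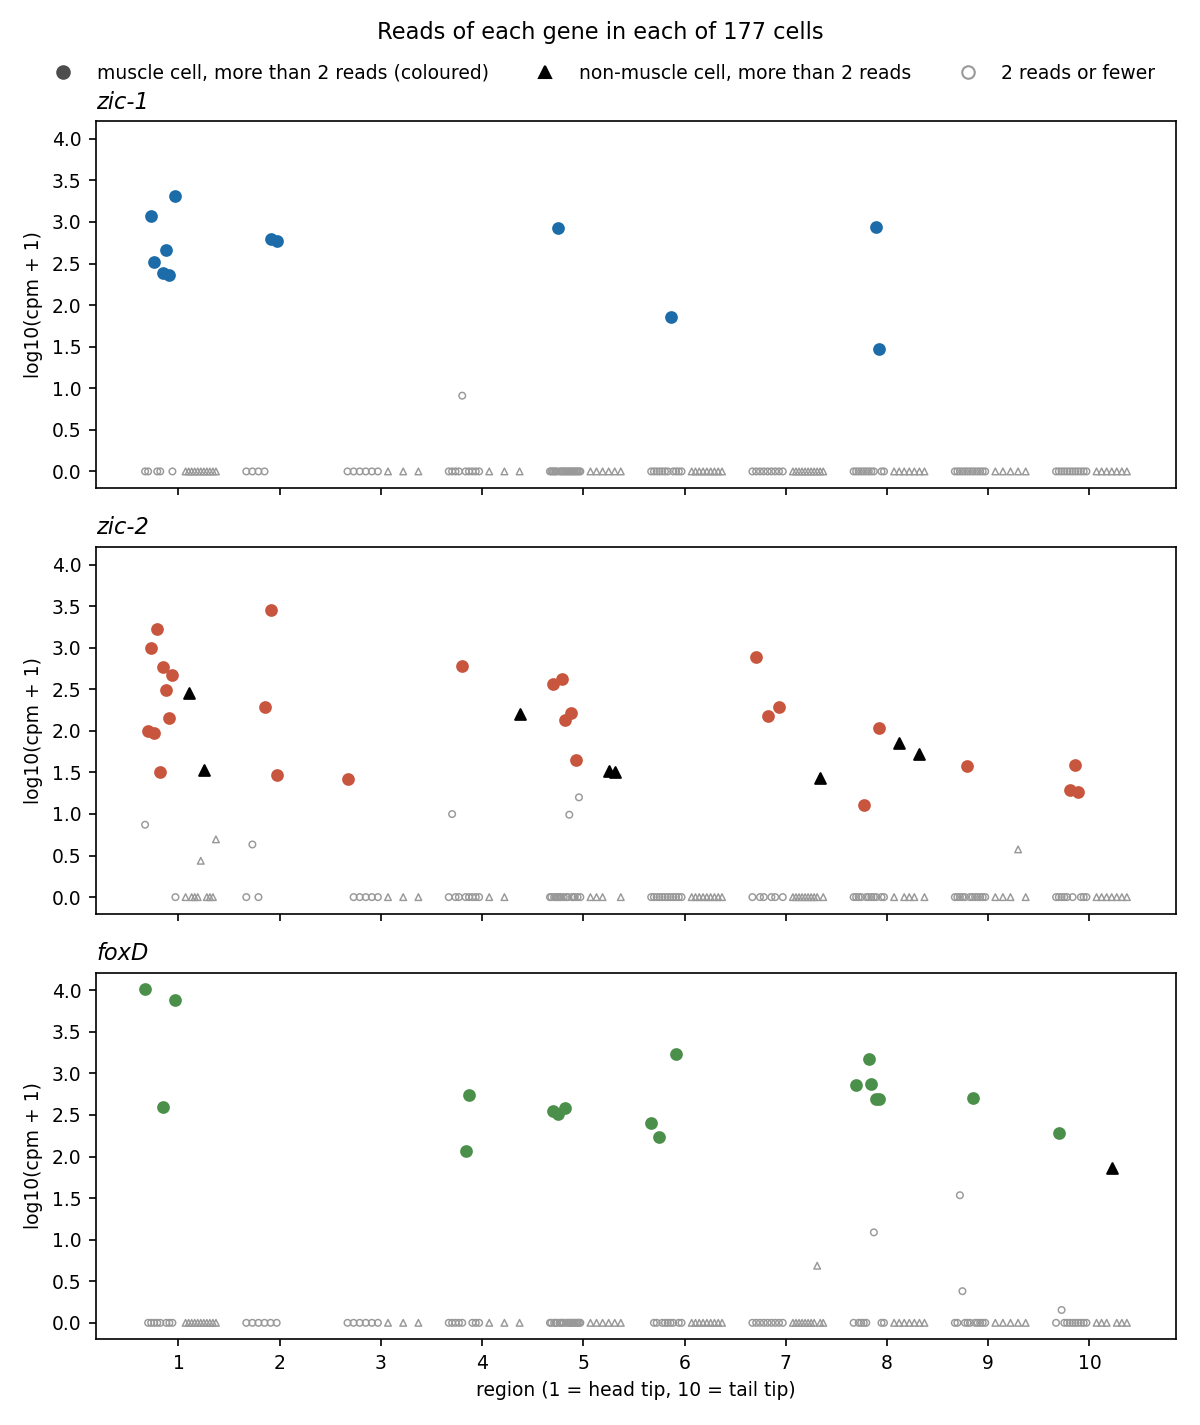
Each point is 1 of the 177 cells, with the region on the x axis and log10(cpm + 1) of the gene on the y axis; coloured circles are muscle cells and black triangles non-muscle cells with more than 2 reads, and open grey symbols are cells with 2 reads or fewer. Of the 12 *zic-1* cells, 8 lie in regions 1 and 2. In muscle, *zic-2* cells lie in every region but region 6, and the 2 *foxD* cells of 7588.9 and 10285.5 cpm stand out in region 1.

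With 6 to 23 cells in a region, most regions could not be told apart by their shares. When the regions were put in order of share, none of the 9 neighbouring pairs had intervals that lay apart, for any of the 3 genes. Of all 45 pairs of regions, the intervals lay apart in 1 pair for *zic-1* (region 1 above region 5). They lay apart in 5 pairs for *zic-2*, region 1 above each of regions 4, 5, 6, 8 and 9, and in 0 pairs for *foxD*. The cell numbers form 3 ranges, and no source used here says what a range stands for. Region 1 drew on 2 of them. *zic-1* was expressed in 4 of 8 and 2 of 3 region 1 cells of these ranges, *zic-2* in 7 of 8 and 2 of 3, and *foxD* in 2 of 8 and 1 of 3.

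**Figure D2:**
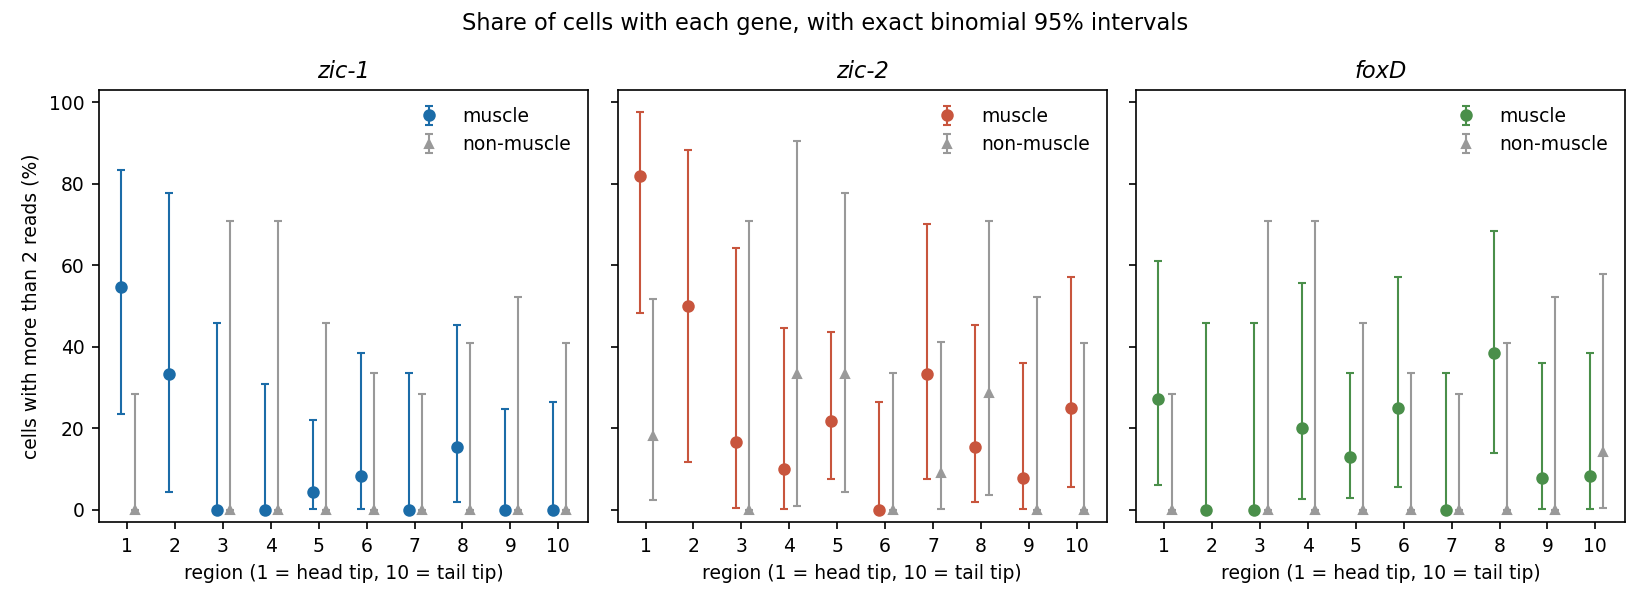
The share of cells with more than 2 reads (y axis, percent) is plotted by region (x axis), with exact binomial 95% intervals as bars; circles are muscle cells and grey triangles non-muscle cells, which are absent from region 2. In muscle the share of *zic-2* is 81.82% in region 1 and between 0% and 50% elsewhere, that of *zic-1* is 54.55% in region 1 and at most 33.33% elsewhere, and that of *foxD* is highest in region 8, at 38.46%.

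The study asked which genes differ along the AP axis in muscle, and the reads of the muscle cells were summed by region to test the 3 genes. None of the 3 passed the test of a slope from region 1 to region 10 with edgeR (adjusted p under 0.05), where 0.0147% of 13570 transcripts passed. The summed *zic-2* reads were 350.3, 553.4, 3.395, 53.27, 61.33, 0, 93.5, 18.78, 2.112 and 4.79 cpm from region 1 to region 10. Its fitted slope was -0.63 ± 0.21 (SE) log2 units per region, with p = 0.008088 unadjusted and 0.5629 adjusted. At the unadjusted level *zic-2* was 1 of the 3 members under 0.05, beside 5.17% of all transcripts. The slope of *zic-1* was -0.31 ± 0.29 (adjusted p = 0.9998) and that of *foxD* was -0.19 ± 0.28 (adjusted p = 0.9998). DESeq2 and limma passed none of the 3 genes either, while they passed 1.11% and 0% of all transcripts. The direction of the *foxD* slope rests on region 1: without that region its slope was 0.82, with an adjusted p of 0.7934.

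For the comparison of anterior muscle (regions 1 to 3, 23 cells) with posterior muscle (regions 8 to 10, 38 cells), none of the 3 genes passed edgeR, beside 0.0295% of all transcripts. *zic-2* was at 325.6 cpm over the anterior cells and 7.02 cpm over the posterior cells, 46.37 times as high. Its region sums were 350.3, 553.4 and 3.395 cpm against 18.78, 2.112 and 4.79 cpm, so region 3 lay within the posterior range. The fitted log2 difference of *zic-2* was 4.88 ± 1.42 (SE, 3 sums against 3), with an edgeR p of 0.002277 unadjusted and 0.732 adjusted. It was 1 of 3 members under 0.05 at the unadjusted level, beside 6.75% of all transcripts. DESeq2 (adjusted p = 0.07819) and limma (adjusted p = 0.8812) did not pass *zic-2* either, while they passed 1.5% and 0% of all transcripts. Without the 1 cell of region 2 that held 47.82% of the *zic-2* reads, the difference was 3.65 (adjusted p = 0.7225).

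For *zic-1* the sums of the anterior and posterior regions overlapped. They were 348.1, 236.4 and 0 cpm in the anterior regions and 208.2, 0 and 0 cpm in the posterior regions, and 1 cell held 97.77% of the 898 reads of region 8. The fitted log2 difference was 1.33 ± 3.28 (adjusted p = 1). Without region 8 it was 12.89 with an edgeR adjusted p of 0.01414, a fitted value against sums of 0 reads that depends on the prior count and is no measure of size. With the range of cell numbers as a covariate it passed edgeR as well (12.61, adjusted p = 0.0002313), but this is no separate support. The last range held no anterior cell and held both posterior cells with *zic-1*, so range and region cannot be told apart in that fit. *foxD* was at 464.7 cpm over the anterior and 116.5 cpm over the posterior cells, a ratio of 3.989, with a log2 difference of 0.81 ± 3.16 (adjusted p = 1). That direction reversed to -12.98 without region 1 (adjusted p = 0.08142) and to -0.17 without the 1 region 1 cell that held 30.68% of the reads (adjusted p = 1). Regions 2 and 3 held 0 *foxD* reads, so -12.98 also depends on the prior count and is no measure of size.

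Region 1 was also compared with the post-pharyngeal regions 7 to 9, where edgeR passed none of the 3 genes and 0.354% of all transcripts. In the head, *zic-1* was at 348.1 cpm, 3.237 times its level of 107.5 cpm in the post-pharyngeal cells. The log2 difference was 2.06 ± 4.19 (1 sum against 3, adjusted p = 1). Without the 1 region 8 cell that held 40.57% of these reads it was 7.01. That cell was picked by its reads and held 878 of the 898 post-pharyngeal reads, so leaving it out must enlarge the difference. Without region 8 the remaining post-pharyngeal sums were 0 reads, so that fit depends on the prior count and is no measure of size. The calls of *zic-1* under these settings rest on leaving out the opposing reads. *zic-2* was at 350.3 against 23.83 cpm, a ratio of 14.7 and a log2 difference of 2.91 ± 1.23 (adjusted p = 0.759, unadjusted p = 0.01789). It was the 1 member under 0.05 at the unadjusted level, beside 5.47% of all transcripts. *foxD* was at 1050.3 against 242.1 cpm, a log2 difference of 2.38 ± 3.62 (adjusted p = 1). Without the 1 region 1 cell with the most reads the head was at 534.8 cpm and the log2 difference was 1.39. DESeq2 and limma passed none of the 3 genes, beside 1.44% and 0% of all transcripts.

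Between the pre-pharyngeal regions 2 to 4 and the tail tip, edgeR passed none of the 3 genes, beside 0.0958% of all transcripts. None of the 3 was under 0.05 at the unadjusted level either, beside 2.46% of all transcripts. *zic-1* was at 96.34 cpm in the pre-pharyngeal cells and had 0 reads in the tail cells, at least 529.6-fold higher against a floor of 3 reads over the tail cells (adjusted p = 0.9131). All but 1 of the pre-pharyngeal *zic-1* reads came from 2 cells of region 2, and without the higher of them the bound was 282-fold. DESeq2 passed this difference with an adjusted p of 1.154e-05, as it did 1.13% of all transcripts, and limma, which passed 12.4% of them, did not (adjusted p = 0.9856). *zic-2* was at 240.1 against 4.79 cpm (adjusted p = 0.9131), and 1 cell held 86.73% of the reads behind this comparison. *foxD* was at 10.81 against 44.44 cpm (adjusted p = 1), and 1 cell held 732 of the 733 tail reads, so the direction rests on that cell: the fitted difference was -1.81 with it and 6.93 without it. In each comparison with the tail tip or the head tip alone, the single sum was assumed to vary like the other regions.

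**Figure D3:**
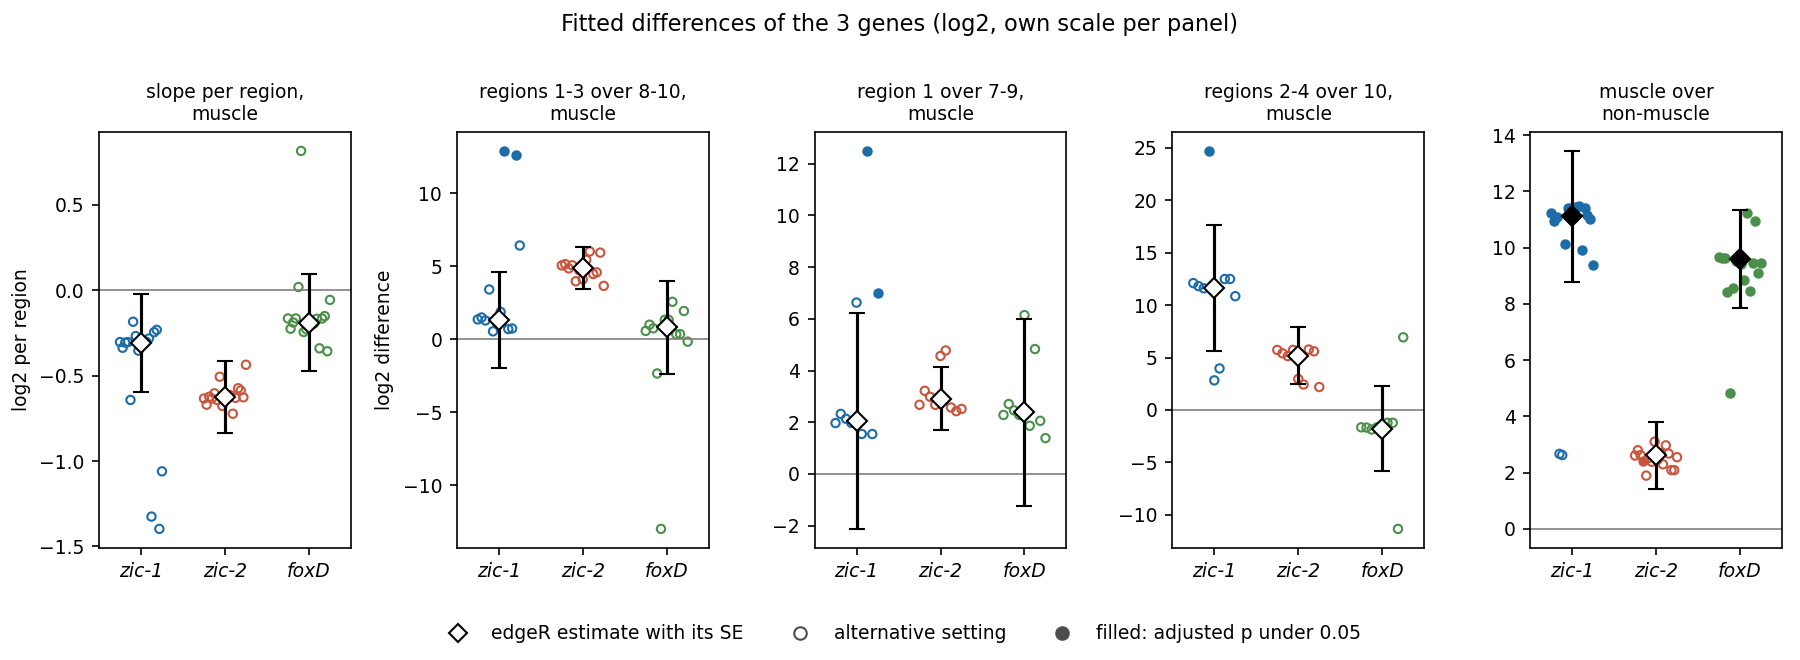
Fitted differences are plotted for the 3 genes in the 5 comparisons, as log2 units per region in the left panel and as log2 differences in the others, each panel on its own scale; diamonds are the edgeR estimates with their SE, circles the alternative settings, and filled symbols have an adjusted p under 0.05. *zic-2* keeps its direction in every setting, from -0.7227 to -0.4362 per region and from 3.654 to 6.009 between the ends. The values of *zic-1* and *foxD* move more widely with the setting.

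Muscle and non-muscle cells differed most for *zic-1* and *foxD*. Both passed the edgeR test over the 9 regions that held both classes, 2 of 3 members beside 6.16% of 16673 transcripts. Over these regions *zic-1* had 2773 reads in 109 muscle cells (61.23 cpm) and 0 reads in the 62 non-muscle cells, where a count of 0 allows a share of up to 4.839% (3 of 62 cells). Against a floor of 3 reads over the non-muscle cells it was at least 577.95-fold higher in muscle, with an edgeR adjusted p of 0.003379. Of the 8398 transcripts found in at least as many muscle cells as *zic-1*, 80 (0.953%) were in none of the non-muscle cells. Its muscle sums were above 0 in 5 of the 9 regions, and DESeq2 (adjusted p = 0.6774) and limma on mean cpm (adjusted p = 0.1232) did not pass it, while they passed 9.04% and 4.5% of all transcripts.

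*foxD* had 8114 reads in these muscle cells (179.2 cpm) and 8 in non-muscle cells (0.2825 cpm), a ratio of 634.2, and 7 of the 8 reads were from 1 cell of region 10. The fitted log2 difference was 9.60 ± 1.74 (SE), with an edgeR adjusted p of 0.000437, and it passed under all 16 alternative settings, with adjusted p from 2.93e-08 to 0.01368. That cell, at 72.25 cpm, was the 1 non-muscle cell that expressed it. *zic-2* was less tied to muscle. It was expressed in 8 of 62 non-muscle cells (12.9%, interval 5.739% to 23.85%), in 5 regions, at 25.85 to 284.1 cpm. Over the 9 shared regions it was at 48.31 cpm in muscle and 10.59 cpm in non-muscle cells, a ratio of 4.56, which was 7.367 without the non-muscle cell with the most reads, a setting chosen after seeing the data. The log2 difference of *zic-2* was 2.62 ± 1.19 (edgeR adjusted p = 0.2448), and with DESeq2 it was 2.42 (adjusted p = 0.02686). The classes were labelled from the transcripts of these same cells, so this comparison is not independent of them. After thinning to 50000 reads, *zic-2* remained in 3 of the 62 non-muscle cells.

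At least 1 of the 3 genes was expressed in 43 of the 115 muscle cells, and 13 of these cells expressed more than 1. *zic-1* and *zic-2* were found together in 8 cells, *zic-1* and *foxD* in 5 and *zic-2* and *foxD* in 4, and 2 cells expressed all 3. The shares within each region, multiplied, would give 6.434, 2.786 and 4.403 cells for the 3 pairs. Cells with *zic-1* alone were rare, 1 of the 12, whereas 18 of 28 *zic-2* cells and 11 of 18 *foxD* cells expressed neither of the other genes. Among the 62 non-muscle cells 9 expressed 1 of the genes, and none expressed more than 1.

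At the head tip, all 11 muscle cells of region 1 expressed at least 1 of the 3 genes. Of these cells, 1 expressed all 3, 4 expressed *zic-1* and *zic-2*, 1 expressed *zic-1* and *foxD*, 4 expressed *zic-2* alone and 1 expressed *foxD* alone. The 2 cells with the most *foxD* were the 2 cells of region 1 without *zic-2*, which had 1 read in one and 0 reads in the other. In regions 4 to 10, 28 of 92 muscle cells expressed any of the genes and 5 expressed more than 1. Of the cells with *zic-1* there, most also had *foxD*: 3 of the 15 *foxD* cells expressed *zic-1*, against 1 of the 77 cells without *foxD*. These 4 trunk and tail *zic-1* cells were deep libraries, with 637262 to 1004313 reads against a median of 230262.5 in the other cells of these regions, and their neoblast markers summed to a median of 12461.4 cpm against 5460.9 cpm. The epidermal markers summed to a median of 100.9 cpm in these 4 cells and 36.15 cpm in the others, and *troponin* was at 408.2 against 1209.8 cpm. The part of depth and of other cell types in this overlap was not tested. Thinned to 50000 reads, 2 cells of regions 4 to 10 still expressed *zic-1* and *foxD* together.

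**Figure D4:**
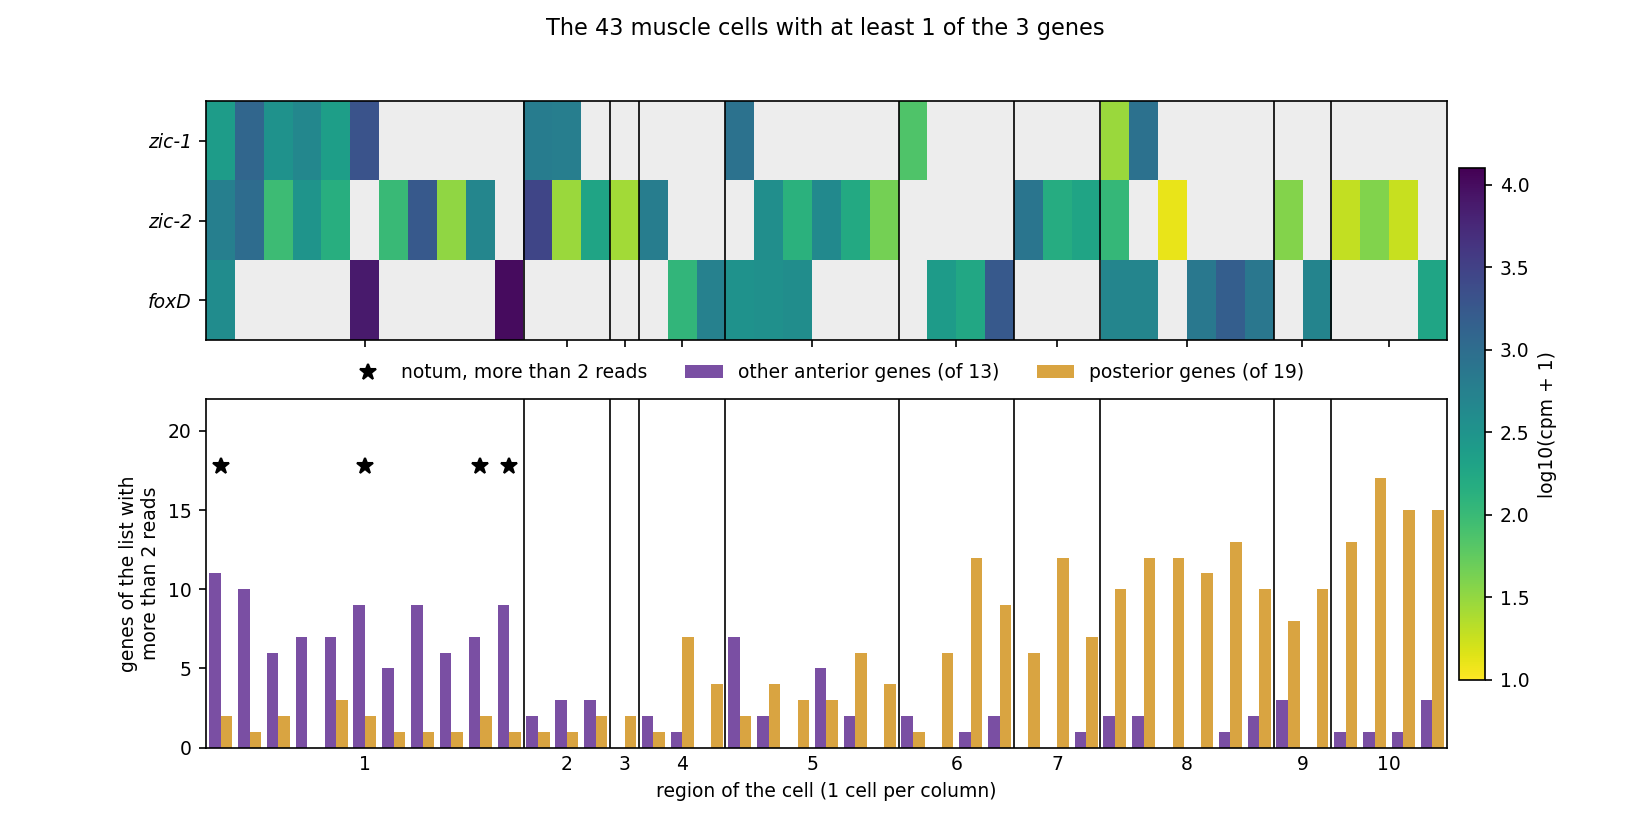
Each column is 1 of the 43 muscle cells with at least 1 of the 3 genes, ordered by region on the x axis; the upper panel gives log10(cpm + 1) in colour where the cell had more than 2 reads (grey otherwise), and the lower panel the number of the 13 other anterior genes and 19 posterior genes expressed in the cell, with stars on cells that express *notum*. In region 1 the columns carry 5 to 11 other anterior genes, and in regions 8 to 10 the columns carry 8 to 17 posterior genes and at most 3 anterior ones.

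The cells of the 3 genes were compared for *notum*, the Wnt inhibitor of the anterior pole. In region 1 all 3 *foxD* cells expressed *notum*, at 154.3, 2061.5 and 2629.2 cpm. Of the 8 region 1 cells without *foxD*, 1 expressed it, at 51.98 cpm, and the other 7 had at most 1 read. None of the 15 *foxD* cells of regions 4 to 10 expressed *notum*, against 2 of the 77 cells without *foxD* there. Among the region 1 cells with *zic-1*, 2 of 6 expressed *notum*, and among those without, 2 of 5. For *zic-2* it was 2 of 9 cells with the gene and both of the 2 cells without it. This is a description of few cells, with no test.

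The cells were then compared over the other anterior genes, 13 in all, which include Wnt inhibitors and receptors and FGF receptor-like genes, and over 19 posterior genes. Both lists come from the study, which chose them with the help of these libraries, so they are not independent evidence of a direction. A further posterior gene, *Post-2d*, was not analysed here. In region 1, the *foxD* cells expressed 9 to 11 of the 13 anterior genes and 1 to 2 of the 19 posterior genes. In regions 4 to 10 the *foxD* cells expressed a median of 1 anterior gene and 10 posterior genes, against 1 and 7 in cells without *foxD*. These *foxD* cells were also deeper, with a median of 427119 against 234869 reads, and within regions 8 to 10 the median was 11 posterior genes both with and without *foxD*. *zic-1* cells expressed a median of 6.5 anterior genes over all regions and cells without it 1. Within region 1 alone, the medians were 8 with *zic-1* and 7 without.

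Libraries with a member were often deeper. Cells with *zic-1* had a median of 510058.5 reads and those without 235988.0. The 12 neoblast markers summed to a median of 9170.4 cpm in *zic-1* cells (of 12 markers, 2 to 12 were expressed, sums 655.6 to 19032.9 cpm) and 5967.8 cpm in the others (1 to 12 markers, 178.3 to 20574.0 cpm). The defining neoblast gene *smedwi-1* was at 0 in 2 of the 12 *zic-1* cells and in 20 of the others. Median *smedwi-1* levels were 1202.5 cpm with and 363.6 cpm without *zic-1*. Within region 1 the neoblast sums had the opposite order, 4938.4 cpm with *zic-1* and 6514.9 cpm without. Their part in the results on *zic-1* was not tested. For *zic-2* the median depths were 375473.0 with and 235988.0 without the gene, and for *foxD* they were 346451.5 and 253316.0.

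Set beside the 13 other anterior genes, *foxD* alone had a lower share of cells in the anterior, but its intervals overlapped. All 13 were expressed in a larger share of muscle cells in regions 1 to 3 than in regions 8 to 10, as were *zic-1* (34.78% against 5.263%) and *zic-2* (56.52% against 15.79%). *foxD* had 13.04% in the anterior cells (interval 2.775% to 33.59%) and 18.42% in the posterior cells (7.743% to 34.33%). *EFR3*, 1 of the 13, had 30.43% against 23.68%. In summed reads *EFR3* was lower in the anterior (47.08 against 100 cpm), whereas *foxD* was higher there (464.7 against 116.5 cpm). The median difference over the 13 genes was 24.3 percentage points, while over all 13570 transcripts tested it was -1.03 points, with 41.9% of transcripts higher in the anterior. In the summed reads, 12 of the 13 anterior genes had a slope below 0 and 1 of them, *ndl-2*, an FGF receptor-like gene, passed the edgeR test (slope -1.75 ± 0.24, adjusted p = 0.00587), beside 0.00737% of all transcripts in that direction. The median slope of the 13 was -0.65, against 0.03 over all transcripts. In region 1 against regions 7 to 9, 6 of the 13 passed as higher in the head, beside 0.125% of all transcripts in that direction, and *notum* was 1 of these 6 (adjusted p = 4.854e-06). The head is a single sum in this comparison, limma passed no transcript, and 2 of the 11 cells, at 2061.5 and 2629.2 cpm, held most of the *notum* reads. The posterior genes had a median slope of 0.73. None of the 19 passed the edgeR test, and 17 were under 0.05 at the unadjusted level, beside 3.49% of all transcripts with a rise.

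**Figure D5:**
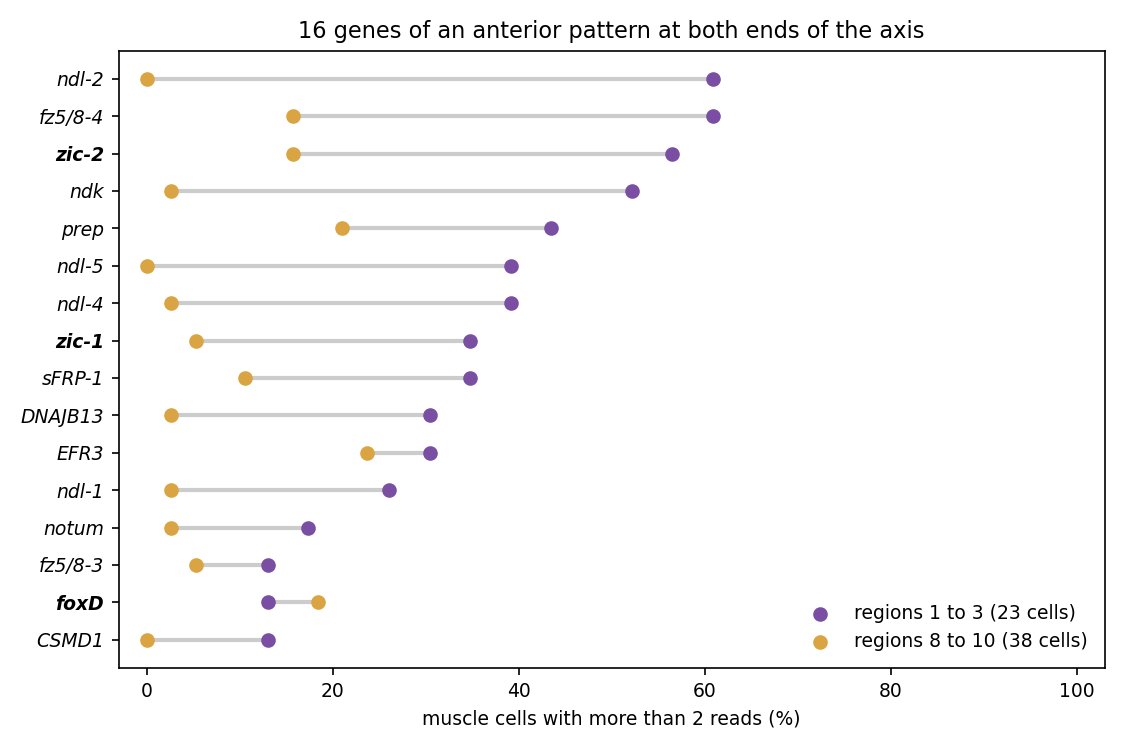
The share of muscle cells with more than 2 reads (x axis, percent) is plotted for the 16 genes with an anterior pattern (y axis), for the 23 cells of regions 1 to 3 and the 38 cells of regions 8 to 10, joined by a line; the 3 genes described here are in bold. The anterior share is the higher one in 15 of the 16 genes. For *foxD* it is 13.04% against 18.42%, with intervals that overlap (2.775% to 33.59% and 7.743% to 34.33%).

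The other transcription factor genes among the regional genes were mostly posterior, and 5 of them were measured. *lox5a*, *Post-2c* and *hox4b* are Hox genes, which pattern the AP axis of many animals, *sp5* encodes a zinc finger protein and *prep* a homeodomain protein. None of the 5 passed the slope test in edgeR, with *lox5a* nearest at 1.41 ± 0.27 per region (adjusted p = 0.1234), and 4 of the 5 were under 0.05 at the unadjusted level, beside 5.17% of all transcripts. In region 1 against regions 7 to 9 the 4 posterior genes were lower in the head, beside 0.228% of all transcripts in that direction, with adjusted p from 2.178e-06 for *lox5a* to 0.04755 for *hox4b*. These genes were chosen by the study with the help of these libraries, and the lower calls over all transcripts went from 31 to 7 with library size alone and to 0 in limma. In the 38 muscle cells of regions 8 to 10, *lox5a* was expressed in 35, *hox4b* in 30, *Post-2c* in 20 and *sp5* in 18. In the 23 cells of regions 1 to 3 *hox4b* was in 2 and the other 3 in 0. *prep*, the anterior gene of the group, passed none of these tests, like *zic-1*, *zic-2* and *foxD*.

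The transcripts most like each gene were found among 11640 transcripts by the Jaccard index over the 115 muscle cells, the cells with both transcripts over the cells with either. For *zic-1* the leading named genes were the FGF receptor-like genes *ndk* (0.4091, 9 shared cells of 22), *ndl-2* (0.40, 8 of 20) and *ndl-4* (0.3333, 6 of 18), behind contig dd_Smed_v4_6886_0_1 (0.4118, 7 of 17). That contig was expressed in 12 of the 115 muscle cells and in 27 of the 62 non-muscle cells, where *zic-1* had no read. *zic-1* and *ndk* were found together away from the head as well, in 3 of the 4 *zic-1* cells of regions 4 to 10, against 4 of the 88 cells without *zic-1*, but *ndl-2* and *ndl-4* were in 0 of these 4 cells. They are the 4 deep libraries with high neoblast markers and low *troponin* described above. For *zic-2* the leading gene was also *ndk* (0.3824, 13 of 34 cells), followed by 4 contigs without a name in the lists used here (0.3333 to 0.375). All 11 muscle cells of region 1 expressed *ndk*, with or without a *zic* gene. They held 6 of the 9 cells shared with *zic-1* and 9 of the 13 shared with *zic-2*. In regions 4 to 10, *ndk* was in 3 of the 15 *zic-2* cells and 4 of the 77 others. *zic-2* ranked 24 for *zic-1*, with an index of 0.25.

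For *foxD* none of the 5 most alike transcripts carried a name from those lists. The first was dd_Smed_v4_12201_0_1, expressed in 16 of the 18 *foxD* cells and in 34 muscle cells in all, with an index of 0.4444 and a Pearson correlation of log2(cpm + 1) of 0.5333 over the 115 cells, which share their libraries and depth. It was present in all 3 *foxD* cells of region 1, against 1 of the 8 without *foxD*. In regions 4 to 10 it was present in 13 of 15 *foxD* cells and 17 of 77 others. Of the non-muscle cells, 10 of 62 expressed it too. The index of *foxD* was 0.20 with *zic-1* and 0.09524 with *zic-2*.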

How the data were processed

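Single cells were sorted, amplified with SmartSeq2 and sequenced by the authors, who trimmed the reads with cutadapt, mapped them with bowtie 1 to the dd_Smed_v4 assembly (CASAVA 1.7.0 is named in the submitters' processing notes) and summed the counts of an isotig. The deposited table holds raw counts per transcript. Further tables with comparisons of muscle regions by SCDE (log2 ratios with bounds and Z-scores) were left out. Labels of muscle and non-muscle are those of the authors, and no doublet caller was run.

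Counts were summed over the cells of each region and class. Transcripts expressed (over 2 reads) in 3 or more cells were tested with edgeR 4.0.16 (R 4.3.3, robust quasi-likelihood, TMM, Benjamini-Hochberg over all transcripts, threshold 0.05), with region as a block for muscle against non-muscle. Alternatives used DESeq2 1.42.0 with poscounts size factors, limma 3.58.1 on log2(mean cpm + 1), other scalings and filters, each region or the cell with most reads left out, and the ranges of cell numbers. The SE of an edgeR value was not fitted but taken as the absolute log2 value over the square root of its F statistic. Shares have exact Clopper-Pearson 95% intervals. Tested on simulated data, the slope fit recovered 18 of 100 transcripts with a slope of 0.6 and 70 of 100 with 1.2, and 20.7% of its 111 calls were false, so its calls do not hold the nominal rate. The fit of regions 1 to 3 against 8 to 10 recovered 2 of 100 transcripts changed by 3 on the log2 scale and 22 of 100 changed by 6. A gene that did not pass there may still differ by such amounts. The named genes are the 3 members, the other anterior genes, the other transcription factor genes and the 5 transcripts most like each member. The members and lists were chosen with earlier results of these data known.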

Additional observations from a re-analysis of the deposited data

Results flagged for a closer look

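In 8 of the 11 groups of 4 to 10 cells with any read of a member, 1 cell lay far from the others of its region (Dixon's criterion, which chance meets in about 1 in 20 groups of normally spread values). Most cells of these groups had 0 reads, so the criterion marks the highest or the only cell with reads. For *zic-2* in muscle these cells were at 2799.9 cpm in region 2, 25.63 cpm in region 3, 607.4 cpm in region 4 and 780.2 cpm in region 7, and a non-muscle cell of region 9 was at 2.751 cpm. For *foxD* they were a muscle cell of region 4 at 552.5 cpm and a non-muscle cell of region 10 at 72.25 cpm. For *zic-1* it was a muscle cell of region 4 at 7.146 cpm, which is 1 read.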

How the results depend on the processing

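The slope test passed 2 transcripts in edgeR, 1 with the DESeq2 size factors, 1 with library size alone, 7 without the filter, 15 with the range of cell numbers as a covariate, 150 in DESeq2 and 0 in limma. Leaving out a region gave 0 (without region 1) to 30 (without region 10), and 1 without region 2. Regions 1 to 3 against 8 to 10 passed 4 transcripts, 37 without the filter, 17 with the covariate, 203 in DESeq2 and 0 in limma, and leaving out a region gave 2 (region 2) to 33 (region 10), with 8 without region 1 and 23 without region 8. Region 1 against 7 to 9 passed 48, 30 with library size alone, 196 in DESeq2 and 0 in limma, and 24 to 46 without a region, the lowest without region 7 and 25 without region 9. Its 17 higher and 31 lower calls became 23 and 7 with library size alone and 10 and 31 with the DESeq2 size factors, and the median of all transcripts moved from -0.12 to 0.22 and -0.30. In regions 1 to 3 against 8 to 10 that median was -0.31, and 0.01 with library size alone. Regions 2 to 4 against 10 passed 13, 2 with the DESeq2 size factors, 4 with library size alone, 154 in DESeq2 and 1687 in limma, and 7 (without region 4) to 14 without a region. Muscle against non-muscle passed 1027 transcripts and 2236 with no region block, which pairs the sums of a region, and 773 to 1049 without a region. The causes of these differences were not tested.

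Of the values of the 3 genes, 176 kept their direction and side of the threshold, 6 reversed, 6 passed only under the alternative and 2 lost their call. No scaling reversed a member. The reversals were all of *foxD*: the slope became 0.019 in limma and ranged from -0.34 (without region 8) to 0.82 (without region 1) when a region was left out, regions 1 to 3 against 8 to 10 became -2.34 in limma, ranged from -12.98 (without region 1) to 2.56 (without region 8), and became -0.17 without the cell with most reads, and regions 2 to 4 against 10 became 6.93 without that cell. *zic-1* in regions 1 to 3 against 8 to 10 passed with the covariate (12.61, adjusted p = 0.0002313). Both that value and the -12.98 of *foxD* in this comparison were fitted against sums of 0 reads and are no measure of size. Both posterior cells with *zic-1* were of the last range, so range and region cannot be told apart in the covariate fit of *zic-1*. DESeq2 gave no adjusted p for *zic-1* and *foxD* in that comparison. The share of muscle cells with *zic-2* was 13.89% in the last range of cell numbers, and that of non-muscle cells 25% in the first range and 4.839% after thinning. The last range held no cell of regions 1 to 4, so range and region cannot be told apart in its share. The share of non-muscle cells with *foxD* was 0% in the first 2 ranges. The replicate numbers of the labels name cells, so no other pairing was possible.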
